A study of Homo sapiens with 9 samples.

Results

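The genes described here are those that moved the same way under both short hairpin RNAs (shRNAs) against LSD1 in OCI-Ly1 cells. They were chosen by measured values of these libraries: a gene was taken when all 6 LSD1 shRNA libraries lay above, or all 6 lay below, all 3 control libraries in CPM, the read count scaled to library size. Of the 26816 genes listed, 5025 met this rule, 2486 higher and 2539 lower, and 4700 of the 15725 genes with enough reads for the statistical model did so. Among genes kept for the model, 2300 were higher (14.6% of all genes kept) and 2400 were lower (15.3%). Because the levels against the control chose the genes, every difference from the control below is a description with its standard error and carries no test. The difference between the 2 shRNAs did not enter the rule and was tested.

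Polyadenylated RNA was sequenced from OCI-Ly1, an established human cell line from a diffuse large B-cell lymphoma, in 9 libraries. All cells carried an shRNA in the pLKO1 vector and were selected with puromycin: 3 biological replicates each of a non-targeting control (shSCR) and of sh68 and sh72, 2 shRNAs that target LSD1. The names are those of the count table, since the sample titles number the LSD1 shRNAs and no label pairs the numbers with the names. No cells without an shRNA are among the libraries analysed here and the time after transduction is not given in the sources used here.

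LSD1, encoded by KDM1A, demethylates lysine 4 of histone H3 and acts within corepressor complexes with CoREST proteins and histone deacetylases, to which transcription factors such as GFI1 and BCL6 can direct it. In germinal-centre B cells BCL6 represses genes of migration, activation and differentiation. Interferon signalling, which recurs below, runs from nucleic acid sensors through interferon receptors, JAK kinases and transcription factor complexes with STAT2 and IRF9 to antiviral effector genes.

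Libraries held 29506767 to 35270849 counted reads, and the lowest Pearson r of log2 CPM within a group was 0.995. No library stood apart from its group. The median log2 fold change over all genes kept was -0.015 for the mean of both shRNAs, -0.0082 with sh68 and -0.011 with sh72. All 8 B-cell markers checked were present, with summed levels of 4755 to 4942 CPM in shSCR, 4810 to 4924 with sh68 and 3132 to 3328 with sh72. Markers of T cells summed to at most 2.77 CPM in any library, with CD3E, TRAC and CD28 absent or under 0.1 CPM, and the epithelial genes KRT8, KRT18, KRT19 and CDH1 were likewise absent or under 0.1 CPM. In bulk RNA such as this, fewer cells of a kind and less RNA per cell cannot be told apart.

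KDM1A, the targeted gene, was at 121, 119.8 and 123 CPM in the shSCR libraries, 23.4, 24.1 and 25.8 with sh68 and 19.1, 22.7 and 20.9 with sh72 (chromosome 1, 23019468 to 23083689, GRCh38.p14). The 3 controls lay together and all 6 LSD1 shRNA libraries lay far below them, at 20.2% of the control level with sh68 and 17.2% with sh72. It was slightly lower with sh72 than with sh68, by -0.23 ± 0.061 on the log2 scale (sh72 minus sh68, ± SE; edgeR quasi-likelihood test, adjusted p = 0.0026 over all genes). KDM1B, the other demethylase of the family, was no member: it was at 57.1, 56.3 and 57.1 CPM in shSCR, 56.2, 57.5 and 59.96 with sh68 and 53.5, 53.1 and 53.9 with sh72.

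Of 25 tested genes of the LSD1 and CoREST complexes and their partners, 10 were lower (40%) and 5 higher (20%) in all 6 libraries. The shares of all genes were 15.3% and 14.6%, and the 10 include KDM1A, the target of the shRNAs. The list's median log2 fold change was -0.11, against -0.015 for all genes. The lower members included KDM1A itself, the GFI1 relative GFI1B (-1.15 on the log2 scale), the NuRD subunits MTA2 (-0.39 ± 0.030) and CHD4 (-0.28), and the complex member HMG20B (-0.27). The higher members were the CoREST scaffold RCOR1 (0.31 ± 0.039), the deacetylase HDAC2 (0.14 ± 0.030), RBBP7 (0.16), ZNF217 (0.48 ± 0.034) and GFI1 (0.44 ± 0.043). RCOR1 was at 61.7, 62.2 and 67.3 CPM in the shSCR libraries, 73.7, 72.9 and 76.2 with sh68 and 85.5, 82.1 and 83.4 with sh72, and its groups did not overlap. GFI1, a repressor that recruits LSD1, was at 39.2, 37.9 and 38.1 CPM in the shSCR libraries, 67.7, 62.2 and 66.8 with sh68 and 42.7, 41.04 and 40.4 with sh72, so most of its difference lay with sh68 (sh72 minus sh68 -0.66 ± 0.048, adjusted p = 2.8e-11 in edgeR). HDAC1 was no member, with 932, 847 and 837 CPM in the sh72 libraries and 848, 844 and 834 in the controls.

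Most interferon effector genes were lower members. Of 64 tested interferon effector genes, 48 were below all controls in every LSD1 shRNA library (75%, against 15.3% of all genes) and 4 above. Their median log2 fold change was -0.79 for the mean of both shRNAs, -1.17 with sh68 and -0.45 with sh72. Together the 48 lower effectors made up 7492, 6907 and 6841 CPM in the shSCR libraries, 2563, 2678 and 2764 with sh68 and 4728, 4309 and 4272 with sh72. The gap between these sums and the control is set by the rule, which chose the 48 genes. The rule left the order of sh68 and sh72 free, and their sums did not overlap, with sh72 nearer the control.

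Many of these genes carry the interferon-stimulated response element, to which complexes with STAT2 and IRF9 bind, close to their start. A 9-letter core, GAAANNGAA or its reverse complement TTCNNTTTC, was searched on both strands of the RefSeq promoters of GRCh38.p14, which run from 250 bases before to 50 after each gene's start. It was found in 8.29% of all 27305 promoters and in 6.70% of the 11286 promoters matched to genes kept. The share was 6.70% of 1657 promoters of higher members, 8.53% of 1830 of lower members, 21.8% of 110 of members lower by at least 2-fold, and 65.8% of the 38 promoters matched to the 48 lower interferon effectors. Stretches upstream of the start are shown for 8 effectors among the lower members, picked from those with a match there. IFITM1, with a match there and a log2 fold change of -2.02, is not shown. For XAF1, with -2.31, no match upstream of the start was recorded. The stretches are on the strand of the gene, with each match in capitals.
IFI44L (chr1:78620335-78620423, + strand): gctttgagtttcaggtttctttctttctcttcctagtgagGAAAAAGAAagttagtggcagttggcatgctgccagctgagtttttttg
IFIT1 (chr10:89392481-89392569, + strand): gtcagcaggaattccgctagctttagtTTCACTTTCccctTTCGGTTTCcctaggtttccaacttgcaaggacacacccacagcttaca
IFI44 (chr1:78649732-78649788, + strand): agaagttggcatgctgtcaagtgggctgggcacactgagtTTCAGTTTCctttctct
DDX60 (chr4:168318757-168318845, - strand): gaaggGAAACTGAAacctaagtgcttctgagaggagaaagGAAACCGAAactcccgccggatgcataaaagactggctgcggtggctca
IFIT3 (chr10:89327836-89327924, + strand): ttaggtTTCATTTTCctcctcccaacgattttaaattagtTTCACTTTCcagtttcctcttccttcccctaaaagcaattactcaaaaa
RSAD2 (chr2:6865766-6865854, + strand): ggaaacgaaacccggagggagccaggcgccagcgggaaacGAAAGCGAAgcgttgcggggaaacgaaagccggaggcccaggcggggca
ISG15 (chr1:1013356-1013444, + strand): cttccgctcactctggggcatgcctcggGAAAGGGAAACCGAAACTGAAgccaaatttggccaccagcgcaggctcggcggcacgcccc
IFI6 (chr1:27672237-27672325, - strand): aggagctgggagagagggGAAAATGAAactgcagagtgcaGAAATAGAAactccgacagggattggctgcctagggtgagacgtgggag
The 8 stretches hold matches on either strand and at different distances from the start, and in ISG15 3 matches overlap. A match is a description of the letters and no evidence of binding in these cells.

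The sensing step moved in part. Of 27 nucleic acid sensors and adaptors 9 were lower (33.3%, against 15.3% of all genes) and 5 higher (18.5%, against 14.6%), with a median of -0.13. The RNA helicases of the RIG-I family DHX58 and DDX58 were lower, DDX58 at 68.5, 61.4 and 65.04 CPM in the shSCR libraries, 23.4, 25.3 and 27.1 with sh68 and 46.4, 42.1 and 46.2 with sh72. The endosomal receptor TLR7 was at 4.67, 4.29 and 4.01 CPM in the shSCR libraries, 3.62, 3.76 and 3.97 with sh68 and 1.14, 1.04 and 1.15 with sh72, lower mainly with sh72 (sh72 minus sh68 -1.77 ± 0.15, adjusted p = 6.4e-10 in edgeR). The adaptor MYD88 (-0.67), the trafficking chaperone UNC93B1 (-0.70), the RNA editor ADAR (-0.67), the E3 ligase TRIM25 (-0.80 ± 0.035), IRF3 (-0.49) and IFI16 (-0.26) were also lower. On the higher side stood RNF125, a ubiquitin ligase that acts on RIG-I, at 0.433, 0.657 and 0.446 CPM in the shSCR libraries, 2.30, 1.94 and 2.21 with sh68 and 3.61, 3.57 and 2.79 with sh72, together with MB21D1, which encodes cGAS (0.89), AIM2 (0.76), TICAM1 (0.46) and TRAF3 (0.26).

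Between receptor and nucleus, 8 of 24 genes were lower (33.3%, against 15.3% of all genes). Only 1, the interferon lambda receptor IFNLR1 (0.39), was higher (4.17%, against 14.6%). The receptor genes IFNAR1 and IFNAR2 were not members: IFNAR1 was at 115, 116 and 114 CPM in shSCR, 116, 115 and 121 with sh68 and 114, 116 and 118 with sh72, all within a narrow band. IFNAR2 was at 129.7, 129 and 133 CPM with sh68 and 82.4, 83.2 and 89.04 with sh72 around a control of 96.3, 99.1 and 98.3, so its 2 shRNAs lay on opposite sides. The transcription factor IRF9 was at 82.3, 82.7 and 80.2 CPM in the shSCR libraries, 29.1, 29.2 and 32.3 with sh68 and 51.5, 51.8 and 48.2 with sh72. It was lowest with sh68 and in between with sh72, with no overlap of groups. STAT2, its partner, was below the controls in all 6 libraries except for 1 sh72 library just above the lowest control (114, 99.2 and 114 CPM in the shSCR libraries, 74.3, 65.4 and 74.1 with sh68 and 88.7, 94.4 and 99.5 with sh72), so it missed the rule. IRF7, the factor that amplifies interferon production, was scarce at 1.51, 1.90 and 1.37 CPM in the shSCR libraries, 0.368, 0.313 and 0.284 with sh68 and 0.991, 0.726 and 0.721 with sh72, which is 43 to 55 reads per control library. The deconjugase USP18, which restrains the receptor, was at 17.1, 14.4 and 13.4 CPM in the shSCR libraries, 1.38, 1.08 and 1.67 with sh68 and 7.61, 5.62 and 5.90 with sh72, and the phosphatase PTPN6 (SHP-1) at 75.3, 76.4 and 72.1 CPM in the shSCR libraries, 22.7, 25.6 and 23.9 with sh68 and 21.4, 20.8 and 20.5 with sh72. The sh68 and sh72 levels of PTPN6 lay close together, with a difference of -0.21 ± 0.057 (adjusted p = 0.0036 in edgeR).

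Among effectors, IFI44L was at 186, 164 and 179 CPM in the shSCR libraries, 2.33, 4.10 and 3.63 with sh68 and 88.9, 82.3 and 90.02 with sh72 (chromosome 1, 78620448 to 78646145), which is 1.90% of the control level with sh68 and 49.3% with sh72. The GTPase MX1, the most abundant lower member with at least a 2-fold difference, was at 1313, 1197 and 1150.0 CPM in the shSCR libraries, 145, 167 and 177 with sh68 and 693, 587 and 550.5 with sh72. The ubiquitin-like ISG15 was at 348, 289 and 260.2 CPM in the shSCR libraries, 37.2, 39.6 and 39.4 with sh68 and 157, 125 and 108 with sh72. IFIT1, which binds foreign RNA caps, was at 26.1, 23.2 and 22.4 CPM in the shSCR libraries, 1.07, 1.20 and 1.45 with sh68 and 12.97, 10.96 and 10.9 with sh72. In each of these the sh68 libraries formed the lowest group and the sh72 libraries lay near the middle of the scale. The pattern was not general: IFIT2, whose exons overlap LIPA, was at 14.2, 12.01 and 13.2 CPM in the shSCR libraries, 3.31, 4.27 and 4.14 with sh68 and 5.65, 5.37 and 4.56 with sh72, and SAMD9 had log2 fold changes of -0.99 and -0.90 with sh68 and sh72, nearly equal.

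The 2 shRNAs differed in the test for 47 of the 52 interferon effector members (adjusted p below 0.05 in edgeR's sh72 minus sh68 contrast, which called 56.2% of all genes). Of the 48 lower effectors, 41 were further from the control with sh68, 3 with sh72 and 4 were not called. The largest gaps were those of IFI44L (4.69 ± 0.093, adjusted p = 1.9e-21), IFIT1 (3.22 ± 0.13, 5.1e-16), IFI44 (2.87 ± 0.070, 4.4e-20), DDX60 (2.68 ± 0.082, 3.9e-18) and RSAD2 (2.29 ± 0.12, 1.3e-13; exons overlap CMPK2). KDM1A itself differed between the shRNAs in the other direction. The 12 effectors outside the rule included OAS3 and OASL, lower with sh68 and close to or on either side of the control with sh72, with log2 fold changes of -1.32 and 0.17 and of -3.57 and -0.28. The 4 higher effectors included GBP2 (0.78), SHISA5 (0.25) and ZC3HAV1 (0.19).

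**Figure D1:**
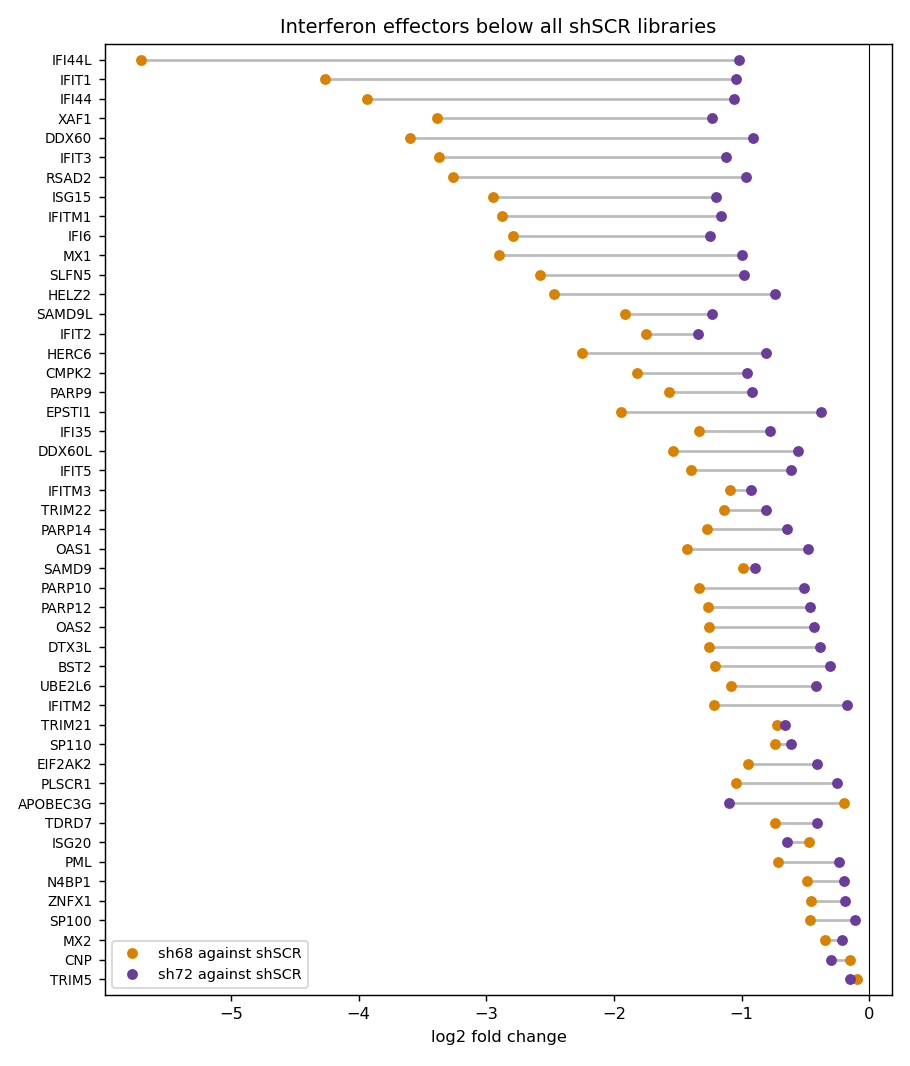
Log2 fold change against shSCR (horizontal axis) with sh68 and with sh72 for each of the 48 interferon effectors below all controls, joined by a grey line and ordered by the mean of both. The sh68 points lie further to the left in nearly all rows with a wide gap, and APOBEC3G, ISG20, CNP and TRIM5 show the reverse order.

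The higher members reached larger folds than the lower ones among genes scarce in the control, but not among abundant genes. The median log2 fold change of the mean was 0.52 among the 2300 higher genes (0.54 with sh68, 0.47 with sh72) and -0.34 among the 2400 lower genes (-0.33 with each). At least a 2-fold difference was seen for 560 higher and 188 lower genes, and with each shRNA separately for 368 and 89. A difference of at least 8-fold was seen for 34 and 5. Of the 560 higher genes, 387 lay below 1 CPM in shSCR and 151 at 1 to 10 CPM. Below 1 CPM in shSCR there were 525 higher members (median log2 fold change 1.37) and 98 lower ones (-0.88). A higher gene scarce in the control can pass the count filter through the LSD1 shRNA libraries alone, whereas a lower gene must pass by its control level. The part of the filter in these folds was not tested. At 10 to 100 CPM in shSCR the median log2 fold change was 0.32 for higher and -0.31 for lower members. Above 100 CPM it was 0.25 and -0.26, with 1 higher and 16 lower genes at 2-fold or more. The higher members together took 120430 to 121440 CPM in shSCR, 154880 to 155230 with sh68 and 146950 to 152640 with sh72. The lower members took 232400 to 233950, 184120 to 187740 and 187640 to 189940 CPM, respectively.

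The balance of directions varied with the level. With genes split by their mean CPM over all 9 libraries, 667 of 3855 at 1 to 10 CPM were higher (17.3%) and 428 lower (11.1%), while above 100 CPM 390 of 2636 were higher (14.8%) and 534 lower (20.3%). Below 1 CPM 353 of 2986 were higher (11.8%) and 153 lower (5.12%). The count filter asks for reads in as many libraries as the smallest group holds, so scarce genes could enter through the LSD1 shRNA libraries alone, and the part of the filter and of counting error in these shares was not tested.

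The model that used the mean of both shRNAs called 3908 genes higher (24.9% of all genes) and 4318 lower (27.5%), and 2238 of the 2300 higher and 2331 of the 2400 lower members were among them, a count fixed in large part by the rule. With the 6 LSD1 shRNA libraries as 1 group, 1857 genes were called higher and 1724 lower. The model that used the mean of both shRNAs also called 3657 genes outside the rule, and in 1179 of those the 2 shRNAs had opposite signs. Close to the edge of the rule the differences were small. ZBTB1 was just inside, at 78.2, 80.9 and 83.7 CPM in the shSCR libraries, 85.3, 85.9 and 89.7 with sh68 and 83.7, 90.8 and 89.1 with sh72, as were TSPAN12 and MRPS14 on the higher side and FBXO38, C6orf89 and MED11 on the lower side. WDR61 was just outside, at 60.3, 60.8 and 59.7 CPM in the shSCR libraries, 60.8, 65.3 and 62.3 with sh68 and 67.1, 64.6 and 64.5 with sh72, as were DCPS, CHAF1A, LINC00888, SYNGR1 and MAP3K1. SYNGR1 fell outside although it was far below the control with sh72 (3.41, 5.53 and 4.13 CPM) because 1 sh68 library matched the lowest control (11.6, 8.97 and 10.8 CPM with sh68 against 12.3, 13.4 and 11.6). MED11 was inside with nearly all of its difference in sh68 (-0.73 with sh68 and -0.086 with sh72).

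Among members with an average log2 CPM of at least 1, ranked by the smaller of the 2 fold changes, the largest shared rise in level was that of ERBB4, a receptor tyrosine kinase for neuregulins (chromosome 2, 211375717 to 212538802). It was at 0.896, 0.623 and 0.351 CPM in the shSCR libraries, 7.83, 6.32 and 8.23 with sh68 and 7.14, 6.63 and 7.28 with sh72, or 11 to 29 reads per control library, and its log2 fold change was 3.52 ± 0.17. DTHD1 was at 0.464, 0.346 and 0.287 CPM in the shSCR libraries, 3.53, 3.19 and 3.40 with sh68 and 3.002, 3.09 and 3.93 with sh72. MYBPC1, a myosin-binding protein of slow muscle, was at 0.711, 0.381 and 0.701 CPM in the shSCR libraries, 5.25, 5.18 and 5.50 with sh68 and 4.52, 5.56 and 5.999 with sh72. In these 3 genes the sh68 and sh72 libraries interleaved and all stood far above the controls. The protocadherin PCDH9 was higher with sh68 (8.26, 6.86 and 7.80 CPM) than with sh72 (3.47, 3.03 and 3.31), against 0.494, 0.346 and 0.382 in the controls.

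Other genes high in this order were the inhibitory lectin receptor KLRC1, TMEM71, LINC01054, the adaptor SCIMP, which is found at the immune synapse of B cells, the phosphodiesterase PDE4A, CARD6, RNF125, FAM129C, KIAA1324 and the pseudogene SERPINB9P1. SCIMP was at 0.927, 0.796 and 0.765 CPM in the shSCR libraries, 3.99, 3.84 and 4.68 with sh68 and 4.87, 4.39 and 5.87 with sh72, and FAM129C at 2.56, 1.97 and 2.71 CPM in the shSCR libraries, 12.8, 10.2 and 12.3 with sh68 and 10.1, 8.81 and 11.2 with sh72. Control levels of the 14 leading higher genes reported ranged from 0.287 to 2.71 CPM, so all were scarce in the control.

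On the lower side, with the same limit on the average, the largest shared difference was that of LRRC32, the gene of GARP, which holds latent TGF-beta at the cell surface (chromosome 11, 76657524 to 76670747). It was at 35.98, 32.2 and 26.2 CPM in the shSCR libraries, 4.54, 4.58 and 4.31 with sh68 and 3.03, 3.47 and 4.07 with sh72 and its log2 fold change was -2.99 ± 0.088, beyond that of the targeted gene KDM1A (-2.42 ± 0.044). LGALS9, which encodes galectin-9, was at 58.7, 56.2 and 50.2 CPM in the shSCR libraries, 14.4, 16.6 and 17.2 with sh68 and 14.5, 14.8 and 14.6 with sh72. CAMP, the gene of the antimicrobial peptide cathelicidin, was at 79.1, 78.7 and 82.1 CPM in the shSCR libraries, 28.97, 32.1 and 34.9 with sh68 and 23.8, 25.9 and 24.8 with sh72. The growth factor gene MDK was at 4.79, 4.88 and 4.21 CPM in the shSCR libraries, 1.78, 1.57 and 1.53 with sh68 and 0.991, 1.29 and 0.754 with sh72, and C10orf54, which encodes the checkpoint protein VISTA, at 5.96, 6.30 and 6.12 CPM in the shSCR libraries, 1.93, 2.33 and 2.19 with sh68 and 1.69, 2.15 and 1.74 with sh72. In all 5 genes both LSD1 shRNA groups stood well below the controls; the sh68 and sh72 libraries overlapped in LGALS9 and C10orf54, and LRRC32, CAMP and MDK were lower with sh72 (sh72 minus sh68 -0.35 ± 0.14, -0.37 ± 0.061 and -0.68 ± 0.20, adjusted p = 0.041, 1.6e-05 and 0.0061 in edgeR). The other leading lower genes were TMEM163, the adaptor FYB, PTPN6, TMEM132A (exons overlap SLC15A3), ZNF467, TOR4A, IFIT2, the monoglyceride lipase MGLL and the transcription factor BHLHE40. BHLHE40 was scattered within groups, at 5.72, 3.88 and 3.38 CPM in the shSCR libraries, 1.17, 1.11 and 0.908 with sh68 and 1.25, 1.71 and 2.46 with sh72.

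**Figure D2:**
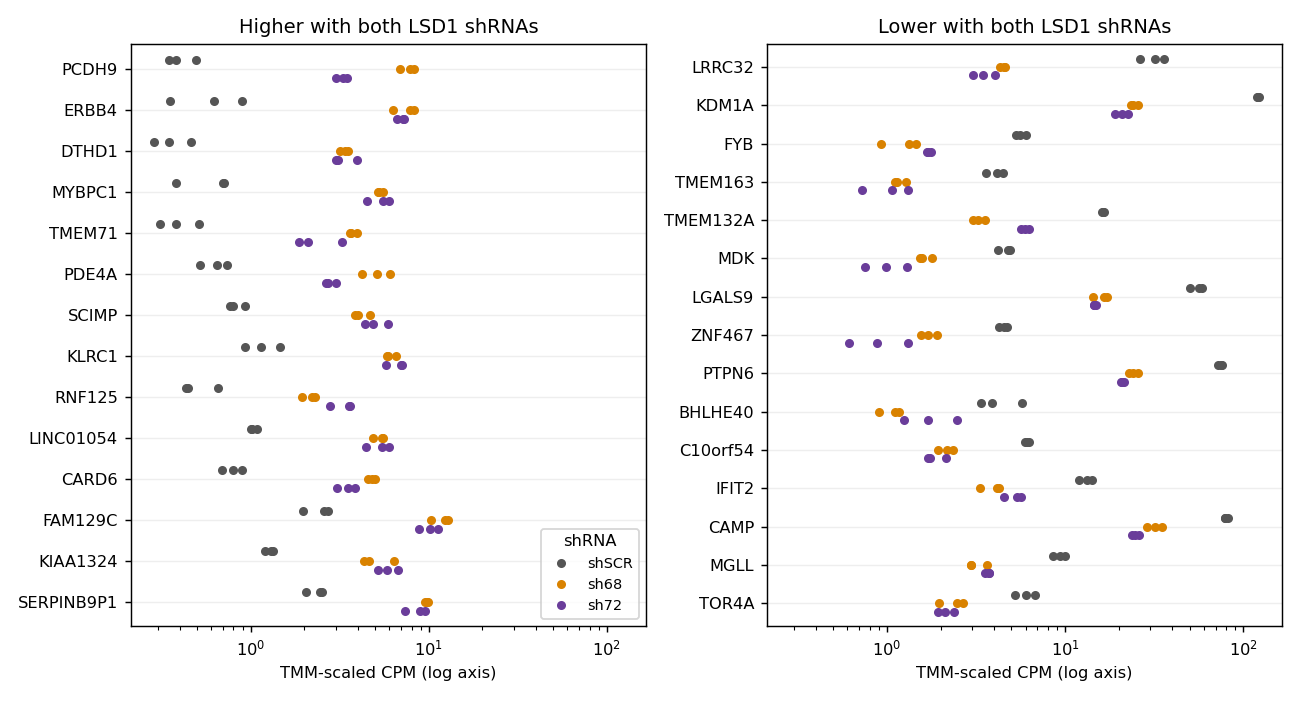
TMM-scaled CPM on a log axis in each of the 9 libraries for 14 higher (left) and 15 lower (right) genes among those with the largest change shared by both LSD1 shRNAs, ordered by the mean log2 fold change. Grey points (shSCR) stand apart from orange (sh68) and purple (sh72) points in every row, as the rule requires, and KDM1A and CAMP are among the more abundant genes shown.

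Among abundant members with at least a 2-fold difference, TTN, the gene of the giant muscle protein titin, was at 430.1, 391 and 409 CPM in the shSCR libraries, 800.2, 749 and 726 with sh68 and 820.4, 858 and 987 with sh72; its exons overlap CCDC141 and TTN-AS1. USP53 was at 36.2, 36.9 and 37.4 CPM in the shSCR libraries, 96.7, 87.5 and 87.7 with sh68 and 79.97, 80.6 and 85.9 with sh72. CD96, a receptor of the nectin family, was at 32.98, 34.4 and 34.7 CPM in the shSCR libraries, 159.9, 143 and 149 with sh68 and 56.3, 50.5 and 52.4 with sh72, and the zinc finger factor ZEB2 at 33.4, 33.7 and 32.9 CPM in the shSCR libraries, 124, 118 and 123 with sh68 and 39.5, 39.6 and 38.6 with sh72. The 2 shRNAs differed little for TTN (0.23 ± 0.052, adjusted p = 0.00068 in edgeR) and USP53 (-0.14 ± 0.046, adjusted p = 0.012), although their libraries did not overlap, whereas CD96 and ZEB2 were far higher with sh68 than with sh72. BCAT1, an enzyme of branched-chain amino acid breakdown, had the reverse order, at 28.99, 25.99 and 22.7 CPM in the shSCR libraries, 38.5, 41.9 and 40.4 with sh68 and 71.05, 72.4 and 71.7 with sh72.

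Of the abundant lower members, the Fc receptor-like gene FCRL3 was at 974, 1024 and 1046 CPM in the shSCR libraries, 389, 406 and 392.5 with sh68 and 583, 661 and 662 with sh72. LSP1, an actin-binding protein of leukocytes, was at 479, 515 and 482 CPM in the shSCR libraries, 258, 283 and 259 with sh68 and 215, 216 and 202 with sh72. Lower still relative to its control was SAMD9L, at 277, 233 and 258 CPM in the shSCR libraries, 63.4, 67.3 and 72.98 with sh68 and 109.8, 107 and 109.9 with sh72. LSP1 was lower with sh72 than with sh68 and the other 2 were lower with sh68.

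Although both shRNAs moved these genes the same way, they often did so to different degrees. The sh72 minus sh68 contrast was called for 1139 of the 2300 higher members (49.5%) and 1155 of the 2400 lower members (48.1%), against 56.2% of all genes. Among the called higher members sh68 was further from the control in 660 and sh72 in 479, and among the called lower members the split was 578 against 577. The 95% interval of the difference lay within 0.5 of 0 on the log2 scale for 1350 higher (58.7%) and 1781 lower members (74.2%). For members of at least 2-fold, the intervals were seldom that narrow: 54 of 560 higher and 21 of 188 lower.

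**Figure D3:**
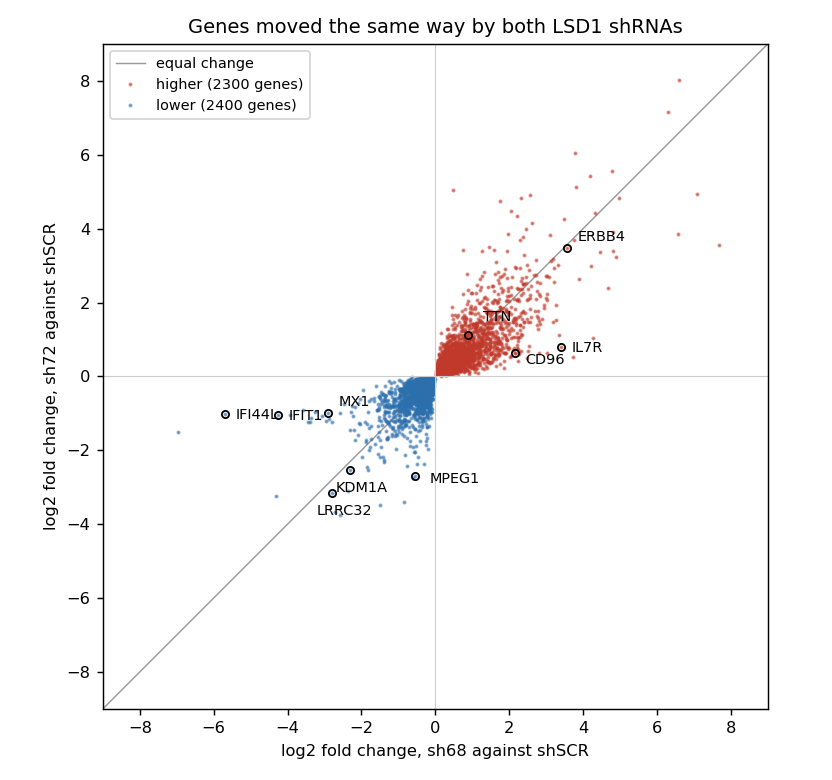
Log2 fold change against shSCR with sh68 (horizontal axis) and sh72 (vertical axis) for the 2300 higher and 2400 lower genes, with the line of equal change and some genes named. ERBB4 and KDM1A lie near the line, IL7R and IFI44L far to the sh68 side of it, and MPEG1 to the sh72 side; both axes enter the rule, so no gene can lie in the other quadrants.

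IL7R, the interleukin-7 receptor of early lymphoid cells, was at 10.2, 9.41 and 10.1 CPM in the shSCR libraries, 111, 100.2 and 105 with sh68 and 17.3, 17.8 and 17.1 with sh72. The 3 groups were separate, with sh68 far above sh72 (sh72 minus sh68 -2.60 ± 0.053, adjusted p = 2.6e-21 in edgeR). PRR5L (-2.25 ± 0.13) and CRB2 (-2.17 ± 0.10; exons overlap DENND1A) followed. MPEG1, a pore-forming protein of phagocytes also found in B cells, was the leading gene with the larger fall in level under sh72, at 78.9, 90.3 and 83.9 CPM in the shSCR libraries, 51.3, 60.3 and 62.3 with sh68 and 12.1, 13.3 and 13.7 with sh72 (-2.16 ± 0.073, adjusted p = 2.5e-17; exons overlap DTX4). Summed monocyte and macrophage markers, mostly MPEG1, were 79.3 to 90.8 CPM in shSCR, 52.7 to 63.3 with sh68 and 12.6 to 14.3 with sh72, and CD163, S100A9 and FCGR1A were absent or under 0.1 CPM.

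At the other end were genes with nearly the same level under both shRNAs. FAM46C, which encodes a poly(A) polymerase active in the B lineage, was at 97.4, 114 and 112 CPM in the shSCR libraries, 47.2, 52.1 and 51.5 with sh68 and 50.8, 48.8 and 50.9 with sh72, with a difference of -0.0031 ± 0.057 and a 95% interval of -0.12 to 0.11. For DTHD1 the interval was -0.31 to 0.27 and for MYBPC1 -0.25 to 0.26. It was -0.22 to 0.26 for LINC01054 and -0.19 to 0.21 for the neuronal microtubule gene MAP2. ERMN, ALDH2, SLCO4A1 and SERPINA9 on the lower side and PTGER4 and DPY19L2 on the higher side also had differences near 0, with intervals reaching at most 0.38 from it. MYO1G, a myosin of blood cells, was at 219, 225 and 223 CPM in the shSCR libraries, 116, 116 and 112 with sh68 and 105, 111 and 104 with sh72; its small gap was called (-0.10 ± 0.038, adjusted p = 0.026 in edgeR) but turned to 0.041 under offsets for GC content and length.

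Of 39 B-lineage transcription factors 11 were higher (28.2%) and 6 lower (15.4%), with a median of 0.089. The higher ones included ID3 (0.86 ± 0.062), an inhibitor of E proteins, XBP1 (0.79 ± 0.045), a factor of the secretory programme, MEF2C (0.75 ± 0.033; exons overlap MEF2C-AS1), FOXO1 (0.62 ± 0.036; exons overlap LINC00598) and MYB (0.62). XBP1 was at 42, 41.4 and 39.96 CPM in the shSCR libraries, 83.2, 77.9 and 80.4 with sh68 and 65.6, 58.2 and 64.4 with sh72. The lower ones were LMO2 (-1.69), ID2 (-0.93 ± 0.041; exons overlap ID2-AS1), SPI1 (-0.60), BCL11A (-0.46), IKZF3 (-0.34) and BCL6 (-0.15 ± 0.032). BCL6 was at 655, 660.5 and 635 CPM in the shSCR libraries, 580.1, 563 and 547 with sh68 and 629.9, 584 and 610.0 with sh72, a small gap between groups. ID3 was above and ID2 below all controls, both inhibitors of the same class. IRF4 and PRDM1, factors of plasma cell differentiation, missed the rule: IRF4 was at 0.371, 0.277 and 0.255 CPM in the shSCR libraries, 1.04, 0.655 and 1.56 with sh68 and 0.437, 0.379 and 0.262 with sh72, and PRDM1 was at 0.278, 0.208 and 0.319 CPM in the shSCR libraries, 0.399, 0.228 and 0.341 with sh68 and 0.379, 0.410 and 0.295 with sh72.

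B-cell receptor genes were more often lower (10 of 35, 28.6%) than higher (5, 14.3%), with a median of -0.097. The kinase gene PRKCB was at 60.3, 63.3 and 62.4 CPM in the shSCR libraries, 20.4, 21.3 and 23.3 with sh68 and 24.2, 28.7 and 29.1 with sh72, while the exchange factor VAV3 was at 43.5, 45.6 and 47.9 CPM in the shSCR libraries, 105, 96.7 and 98.3 with sh68 and 56.5, 56.1 and 59.1 with sh72 and the adaptor BANK1 at 189.6, 199 and 200.1 CPM in the shSCR libraries, 365, 365 and 359 with sh68 and 229.5, 232 and 240.4 with sh72. VAV3 and BANK1 were further from the control with sh68 (sh72 minus sh68 -0.81 ± 0.047 and -0.63 ± 0.036, adjusted p = 5.4e-13 and 3.8e-13 in edgeR). Of 8 germinal-centre markers 2 were higher and 4 lower, and their summed level was 1828 to 1869 CPM in shSCR, 2293 to 2322 with sh68 and 1556 to 1622 with sh72.

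Genes of lymphocyte trafficking and adhesion leaned upward, with 10 of 31 higher (32.3%), 5 lower (16.1%) and a median of 0.34. The egress-blocking activation marker CD69 (2.12), the sphingosine phosphate receptors S1PR4 (1.12) and S1PR2 (0.34), the oxysterol receptor GPR183 (0.78 ± 0.039), the integrin chain ITGAL (0.63 ± 0.036) and its ligand ICAM2 (0.79 ± 0.060; exons overlap PRR29) were higher. GPR183 was at 104, 96.7 and 110.1 CPM in the shSCR libraries, 184, 192 and 190.3 with sh68 and 162, 169.9 and 169 with sh72, with all 6 knockdown libraries well above the controls and those of sh68 slightly above those of sh72. ITGB2, the integrin chain that pairs with ITGAL, was at 70.6, 78.5 and 68.3 CPM in the shSCR libraries, 53.5, 52.6 and 48.98 with sh68 and 37.3, 42.9 and 37.6 with sh72 and thus lower (exons overlap ITGB2-AS1). PECAM1 (-0.73 ± 0.089), ITGB1 (-0.28), ARHGEF1 (-0.23) and RGS16 (-0.19) were also lower.

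Among 30 cytokine and TNF family receptors 9 were higher (30%) and 5 lower (16.7%), with a median of 0.11. IL6R was at 1.64, 1.59 and 1.88 CPM in the shSCR libraries, 8.53, 6.26 and 5.90 with sh68 and 1.95, 2.43 and 2.98 with sh72, mainly a change of sh68 (-1.49 ± 0.15, adjusted p = 1.4e-08 in edgeR). IL12RB1 was at 11, 10.2 and 11.8 CPM in the shSCR libraries, 22.1, 18.7 and 21.2 with sh68 and 23.2, 20.3 and 19.1 with sh72, with overlapping sh68 and sh72 libraries (0.017 ± 0.076). The lower receptors included the BAFF receptor TNFRSF13C (-0.90 ± 0.064), CD40 (-0.66), IL15RA (-1.02) and the death receptor TNFRSF10B (-0.56 ± 0.042; exons overlap RHOBTB2). TNFRSF13C was at 22.8, 22.6 and 24.3 CPM in the shSCR libraries, 12.1, 11.7 and 11.5 with sh68 and 11.5, 13.2 and 14.9 with sh72.

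In cyclic nucleotide signalling 9 of 32 genes were higher (28.1%) and 5 lower (15.6%), with a median of -0.074. The higher ones held phosphodiesterases that act on cAMP, PDE4A, PDE4B, PDE3B (1.38) and PDE4C (0.51), and the cAMP-responsive factor CREM. PDE4B was at 25.8, 26.6 and 26.99 CPM in the shSCR libraries, 69.8, 65.6 and 64.8 with sh68 and 42.3, 40.4 and 44.3 with sh72, and PDE4A at 0.649, 0.519 and 0.733 CPM in the shSCR libraries, 6.08, 4.24 and 5.14 with sh68 and 2.71, 2.999 and 2.65 with sh72. CREM was at 8.28, 9.55 and 9.40 CPM in the shSCR libraries, 14.9, 16.2 and 16.5 with sh68 and 24.9, 25.5 and 24.6 with sh72, furthest from the control with sh72. The lower ones held PDE9A (-1.14 ± 0.089), PDE1B (-0.78) and PDE6D (-0.55), of which PDE9A acts on cGMP.

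Receptor tyrosine kinases had 5 of 18 genes higher (27.8%) and 2 lower (11.1%), with a median of 0.082. Genes of neuronal adhesion and synapse had 5 of 18 higher (27.8%) and 1 lower (5.56%), with a median of 0.22. The shares of all genes were 14.6% higher and 15.3% lower. Apart from ERBB4 the higher genes of these lists included MET, the receptor of hepatocyte growth factor, at 16.4, 15.02 and 15.7 CPM in the shSCR libraries, 61.9, 58.97 and 56.2 with sh68 and 25.9, 27.1 and 29.5 with sh72, and CNTNAP2, a neurexin relative, at 0.865, 0.623 and 0.988 CPM in the shSCR libraries, 1.75, 1.97 and 2.10 with sh68 and 3.50, 4.14 and 4.98 with sh72. MET was highest with sh68 and CNTNAP2 with sh72, each without overlap. EPHA3 (5.17) and FLT3 (3.53) had the largest fitted values but control means of only 0.0325 and 0.0103 CPM, at which a fitted fold change depends on the model's prior count. The median control levels of the kinase and neuronal lists were 3.82 and 1.92 CPM. Of all genes with a mean of 1 to 10 CPM, 17.3% were higher and 11.1% lower, and the part of the level in these lists was not tested.

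Killer cell lectin and C-type lectin genes were the family with the largest share of higher members. Of 16 tested, 9 were higher (56.3%) and 2 lower, with a median of 0.92 for the mean, 1.19 with sh68 and 0.90 with sh72. KLRC1, KLRC2, KLRC3, KLRC4 and the readthrough gene KLRC4-KLRK1 lie next to each other on chromosome 12, from 10372353 to 10454685, and all 5 were at least 2-fold higher. KLRC3 was at 13.9, 13.8 and 14.2 CPM in the shSCR libraries, 67.03, 61.7 and 62.4 with sh68 and 33.98, 37.3 and 37.9 with sh72, KLRC2 at 5.41, 5.95 and 6.34 CPM in the shSCR libraries, 35.9, 36.3 and 34.8 with sh68 and 17.9, 18.8 and 17.5 with sh72 and KLRC1 at 0.927, 1.45 and 1.15 CPM in the shSCR libraries, 5.80, 6.58 and 5.90 with sh68 and 6.99, 7.07 and 5.77 with sh72. KLRC1 to KLRC4 are near-identical copies and the exons of KLRC1 and KLRC2 overlap, so the split of reads among them is uncertain. Natural killer cell markers summed to 4.20 to 4.60 CPM in shSCR, 11.2 to 12.3 with sh68 and 6.62 to 6.99 with sh72, and NCR1, NCAM1, KLRF1, GNLY and FCGR3A were absent or under 0.1 CPM.

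Only 2 other runs of at least 3 neighbouring members with at least 2-fold differences were found. CD1A, CD1C and PYHIN1 were higher on chromosome 1 between 158248336 and 158990870, where CD1 genes encode lipid-presenting molecules. CD1C was at 3.74, 3.53 and 4.27 CPM in the shSCR libraries, 8.84, 9.08 and 10.7 with sh68 and 10.1, 9.82 and 10.8 with sh72. IFIT2, IFIT3, IFIT1 and IFIT5 were lower on chromosome 10 between 89302046 and 89420997.

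Cell-cycle genes split by phase. Of 43 genes of replication licensing and the G1/S transition 13 were higher (30.2%) and 0 lower, with a median of 0.12, and of 39 mitotic genes 1 was higher and 13 were lower (33.3%), with a median of -0.14. The differences were small. CDKN2C, an inhibitor of CDK4 and CDK6, was at 138, 136 and 136 CPM in the shSCR libraries, 211, 209 and 205 with sh68 and 232, 203 and 211 with sh72, and the helicase subunit GINS3 at 18.4, 19.7 and 18.3 CPM in the shSCR libraries, 27.99, 28.2 and 26.6 with sh68 and 36.2, 34.6 and 32.7 with sh72. E2F7 (0.61 ± 0.053), CDC6 (0.35), MCM3 (0.23) and PCNA (0.18) were also higher. In mitosis, the cytokinesis protein ANLN was at 148, 146 and 151 CPM in the shSCR libraries, 102, 116 and 112 with sh68 and 88.6, 86.9 and 91.8 with sh72 (exons overlap KIAA0895) and the kinase NEK2 at 44.1, 44.9 and 44.04 CPM in the shSCR libraries, 32.9, 39.6 and 37.4 with sh68 and 27.1, 23.1 and 24.8 with sh72, with KIF2C (-0.37 ± 0.040), ESPL1 (-0.36 ± 0.034), CCNB1 (-0.26) and TOP2A (-0.23) also lower. PRC1, the 1 higher mitotic gene, had a log2 fold change of 0.27. In each of these the controls did not overlap the LSD1 shRNA libraries, as the rule requires, and the gap was a fraction of the control level.

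Sterol and fatty acid synthesis had 12 of 32 genes lower (37.5%) and 3 higher, with a median of -0.13. MSMO1, an enzyme late in cholesterol synthesis, was at 252, 278 and 266 CPM in the shSCR libraries, 163, 177 and 173 with sh68 and 99.6, 108 and 109 with sh72, and the desaturase SCD at 854, 868 and 865 CPM in the shSCR libraries, 441, 471 and 454 with sh68 and 752, 813 and 795 with sh72. MSMO1 was lowest with sh72 and SCD with sh68 (-0.70 ± 0.045 and 0.79 ± 0.038, adjusted p = 4.5e-12 and 1.5e-14 in edgeR). HMGCS1 (-0.37), FASN (-0.25) and the regulator SREBF2 (-0.21) were lower, and the higher ones included STARD4 (0.32) and MVK (0.12).

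Genes of endoplasmic reticulum stress and ATF4 were higher in 11 of 37 cases (29.7%) and lower in 7 (18.9%), with a median of 0.14. The chaperones HSPA5 (0.18), HSP90B1 (0.20), CALR (0.24) and PDIA6 (0.38) were all slightly higher, as was the sensor EIF2AK3 (0.53 ± 0.040), while DDIT4 was at 158, 120.4 and 115 CPM in the shSCR libraries, 44.7, 45.7 and 41.1 with sh68 and 68.7, 64.9 and 74.6 with sh72. Glycolysis and hypoxia had 9 of 36 genes lower (25%) and 4 higher, with VEGFA at 88.2, 77.1 and 80.5 CPM in the shSCR libraries, 34.2, 30.8 and 29.2 with sh68 and 40.97, 55.9 and 57.4 with sh72 and PFKFB3 (-0.66 ± 0.042) and ALDOC (-0.62 ± 0.055) also lower. Of 41 p53 targets and death regulators 7 were higher and 9 lower, near the shares of all genes. MDM2 was at 219.7, 238 and 244 CPM in the shSCR libraries, 617, 583 and 633 with sh68 and 319, 287 and 314 with sh72, highest with sh68 (exons overlap CPM), and PMAIP1, which encodes NOXA, at 129, 137 and 127 CPM in the shSCR libraries, 210.2, 211 and 221 with sh68 and 212, 196 and 206 with sh72, with like levels under both shRNAs.

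Of 49 regulators of histone and DNA methylation 13 were lower (26.5%) and 6 higher (12.2%), with a median of -0.032. KDM5B, a demethylase that also acts on lysine 4 of histone H3, was at 16.9, 19.1 and 17.3 CPM in the shSCR libraries, 7.52, 7.12 and 6.89 with sh68 and 8.74, 10.6 and 10.8 with sh72. KDM7A (-0.87 ± 0.051), KDM6B (-0.45), KDM5C (-0.28) and KDM5A (-0.21) were lower too. On the higher side were TET1 (0.69 ± 0.14), KDM8 (0.51 ± 0.086), EZH2 (0.25), DOT1L (0.30) and DNMT1 (0.22).

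**Figure D4:**
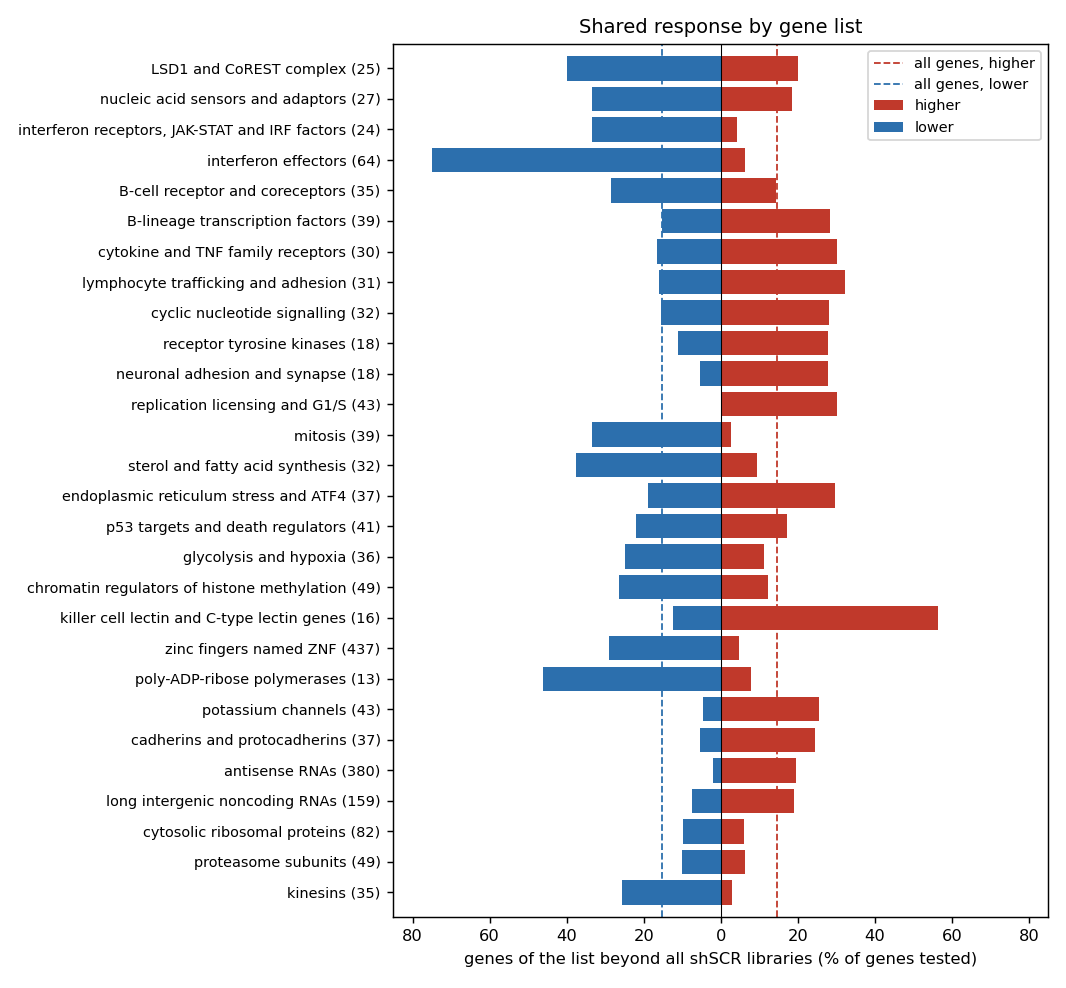
Share of the tested genes of each list or family that lay above (red, to the right) or below (blue, to the left) all shSCR libraries in all 6 LSD1 shRNA libraries, with the number tested in parentheses. Dashed lines give the shares of all genes, 14.6% higher and 15.3% lower; interferon effectors reach 75% lower and killer cell and C-type lectins 56.3% higher.

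Among gene families grouped by name, the zinc fingers with ZNF symbols were the largest. Of 437 tested, 127 were lower (29.1%) and 20 higher (4.58%), with a median of -0.20 for the mean, -0.065 with sh68 and -0.30 with sh72. Their differences were small, and 2 were lower by at least 2-fold, one of them ZNF467 at 4.23, 4.71 and 4.53 CPM in the shSCR libraries, 1.90, 1.71 and 1.56 with sh68 and 0.612, 0.884 and 1.31 with sh72. In the sh72 minus sh68 test, which called 56.2% of all genes, 68 of the 127 were lower with sh72 and 6 lower with sh68. Among all 2400 lower members the same split was 577 and 578. The ZNF order was the reverse of that of the interferon effectors. The share of lower members stayed between 22.6% and 34.1% under the scalings, filters and left-out libraries tried. Their median GC content was 43.4%, against 48.2% for all genes kept.

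Potassium channels (11 of 43 higher, 2 lower, median 0.11) and cadherins (9 of 37 higher, 2 lower, median 0.26) leaned upward, and so did collagens (4 of 15 higher, 0 lower). Their median control levels were only 0.955, 0.872 and 1.65 CPM. Of all genes with a mean of 1 to 10 CPM, 17.3% were higher and 11.1% lower, and below 1 CPM 11.8% and 5.12%. The part of the level in these families was not tested. KCNN4 was at 6.58, 8.24 and 7.46 CPM in the shSCR libraries, 15.01, 13.1 and 11.9 with sh68 and 14.6, 17.2 and 14.2 with sh72. Poly-ADP-ribose polymerases had 6 of 13 lower (46%, against 15.3% of all genes) and 1 higher (7.69%, against 14.6%), with a median of -0.22. Of the lower ones 4, PARP9, PARP10, PARP12 and PARP14, are also in the interferon effector list. PARP9 was at 100.2, 94.2 and 94.97 CPM in the shSCR libraries, 29.7, 32.6 and 35.5 with sh68 and 52.95, 50.04 and 50.5 with sh72 (exons overlap DTX3L). Of 49 proteasome genes 5 were lower (10.2%) and 3 higher (6.12%), against 15.3% and 14.6% of all genes. The lower ones included the interferon-inducible PSMB10, PSME2 and PSME1. PSME1 was at 200.3, 195 and 188 CPM in the shSCR libraries, 111, 119.8 and 118 with sh68 and 168, 156 and 159.7 with sh72. Cytosolic ribosomal proteins (5 of 82 higher, 8 lower), complex I subunits (3 of 46 each way) and ATP synthase subunits (1 of 18 higher, 0 lower) had fewer members than all genes did. ABCB1, the multidrug transporter, was at 8.59, 8.13 and 8.57 CPM in the shSCR libraries, 21.2, 22.8 and 20.3 with sh68 and 16.8, 17.7 and 16.5 with sh72.

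Long noncoding RNAs of the lincRNA and antisense types were more often higher than lower. Of 205 genes typed as lincRNA in GENCODE 49 were higher (23.9%) and 11 lower (5.37%), and of 314 antisense genes 50 were higher (15.9%) and 11 lower (3.50%), compared with 14.2% and 17.8% of 12043 protein-coding genes. Among 380 genes with antisense names 74 were higher and 8 lower. The median control level of these antisense genes was 1.46 CPM, and without a known strand setting their reads cannot be told apart from those of the genes they overlap. Scarce genes of all types were also more often higher, with 17.3% higher and 11.1% lower at a mean of 1 to 10 CPM. The part of the level in the noncoding shares was not tested. Genes typed as small RNAs had few members in either direction. Of 137 small nucleolar RNA genes 1 was higher (0.73%) and 10 were lower (7.30%). Of 67 miRNA genes 1 was higher (1.49%) and 8 were lower (11.9%). All these shares lay below those of all genes, 14.6% higher and 15.3% lower. Of 18 small nucleolar RNA host genes 0 were higher and 4 lower.

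GC content and length went with direction. With genes split by GC content into 5 groups of equal size, from low to high, the share of higher members was 15.3%, 18.0%, 15.2%, 12.4% and 9.31%, and that of lower members 14.7%, 16.0%, 16.8%, 18.6% and 18.3%. GC content was known for 80.3% of the higher and 92.7% of the lower members. Of the longest genes by the same split, those spanning at least 82140 bases, 20.1% were higher and 13.9% lower, compared with 12.5% and 12.9% of the shortest group. The part of GC content and length in the counts per list was not tested.

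By chromosome, lower members were concentrated on chromosome 11, where 226 of 832 tested genes were lower (27.2%) and 86 higher (10.3%). The share of lower members on the other chromosomes ranged from 7.69% on the mitochondrial genome to 20.5% on chromosome 17. In 247 windows of 10 Mb with at least 20 tested genes, the median share of lower members was 14.8%, and the 4 windows with the largest shares were all on chromosome 11: 43.8% of 32 genes at 30 to 40 Mb, 44.0% of 50 at 40 to 50 Mb, 38.1% of 105 in the first 10 Mb and 36.9% of 244 at 60 to 70 Mb. Over the first 80 Mb of the chromosome, a boundary chosen after the windows were seen, 202 of 596 genes were lower (33.9%) and 37 higher (6.21%). Beyond it 24 of 236 were lower (10.2%) and 49 higher (20.8%).

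These were small shifts of many genes. The median log2 fold change over the 596 genes was -0.17 with sh68 and -0.16 with sh72, and over the rest of the chromosome 0.050 and 0.047. For 423 of them with an average log2 CPM of at least 2, the median difference from the mean of the controls was 0.018, 0.0060 and -0.018 in the shSCR libraries, -0.18, -0.17 and -0.18 with sh68 and -0.14, -0.15 and -0.20 with sh72. All 6 knockdown libraries were shifted in the same direction. The region was chosen for its share of lower members in these same libraries, so this is a description and no added support. The controls lie around 0 by construction, since their mean is the reference. On all other chromosomes, with the same limit on the average, the median was -0.054, -0.039 and -0.048 with sh68. It was -0.0035, -0.024 and -0.029 there with sh72. DNA of these cells was not analysed here, so less RNA per gene copy and fewer gene copies cannot be told apart for this region. The genes of the region had a median GC content of 54.9%, against 48.0% on other chromosomes. The median log2 fold change of the region was -0.16 as fitted and -0.17 once offsets for GC content and length were added. Leaving out any 1 library gave -0.14 to -0.17. Among the lower genes there were the actin regulators SWAP70 and LSP1, the B-cell marker MS4A1, MTA2 and TRIM22, named after their values were seen. Chromosomes 13 (23.2%) and 18 (22.5%) had the largest shares of higher members.

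**Figure D5:**
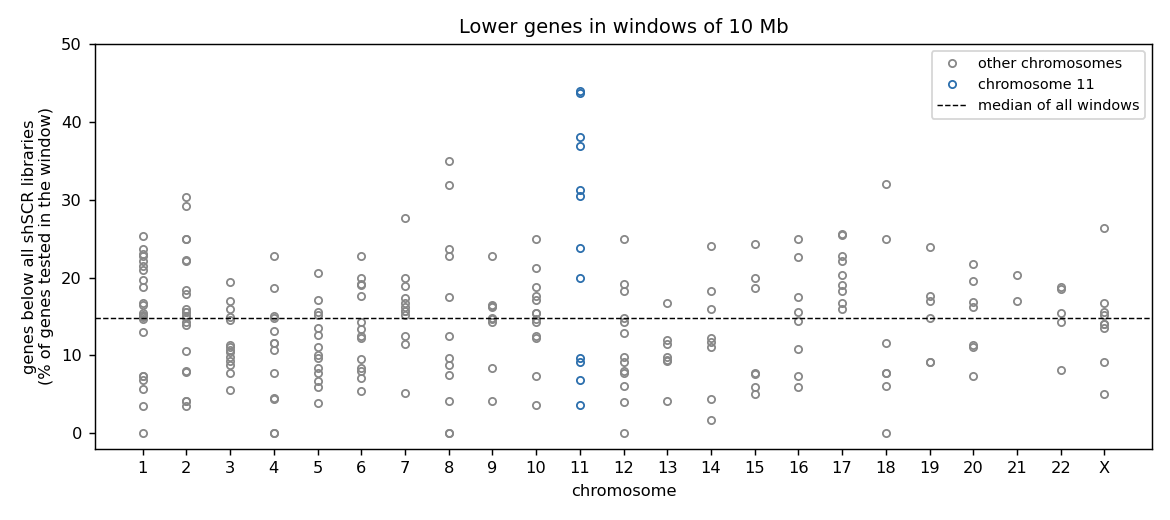
Share of tested genes below all shSCR libraries in each window of 10 Mb with at least 20 tested genes (vertical axis), by chromosome (horizontal axis), with the median of all windows as a dashed line. The windows of chromosome 11 include the 4 largest shares, from 36.9% to 44.0%, as well as windows below the median.

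The 325 members with too few reads for the model were 186 higher and 139 lower genes, none above 0.804 CPM in any library. Of the higher ones 48 had 0 reads in all controls. Another 5 higher members kept for the model also had 0 reads in every control, SH3BGRL2, LYZ, BEST3, CDC42EP1 and a gene with a placeholder name. No fold is given for these.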

How the data were processed

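RNA was measured in 9 libraries of OCI-Ly1 cells. The deposited table holds counts, unnormalized whole reads for each gene symbol and library, per the file headers and values. Per the submitters' processing notes the authors used CASAVA 1.8.2, STAR 2.5.2, featureCounts 1.5.2 and hg38. Neither annotation nor strand setting is given in the sources used here, so reads in overlapping exons cannot be assigned with certainty.

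Genes were kept by edgeR's filterByExpr (15725 of 26816). Libraries were scaled by TMM, and the CPM printed are so scaled. All 9 libraries entered a single quasi-likelihood fit with 1 term per shRNA (edgeR 4.0.16, limma 3.58.1, R 4.3.3; common biological coefficient of variation 0.0394), and p values were adjusted over all genes by the Benjamini-Hochberg method, with calls at 0.05. The ± beside a log2 fold change is its SE. P values measure the spread between replicates of 1 cell line.

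RefSeq on GRCh38.p14 gave positions and promoters (14537 of the genes kept matched), and GENCODE 29 gave GC content, length and type (13163 matched).

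The 18 gene lists and 35 families were written from general knowledge, and the members and lists were chosen with earlier results of these data known. Named genes, with an average log2 CPM of at least 1, were the 15 per direction with the largest change shared by both shRNAs, the 6 per direction most abundant in shSCR with at least 2-fold change, the 5 per sign with the largest sh72 minus sh68 difference, the 6 per direction with the smallest, up to 4 per list and 3 per family, the 3 nearest the rule's edge on each side, and 15 fixed by name. A few genes that the rule or a list names are not reported here. Other list members given with a log2 fold change alone illustrate a count and were picked after their values were seen. Alternatives were scaling by RLE or by library size alone, no filter, at least 1 CPM in 3 libraries, DESeq2 1.42.0, limma-voom, a robust fit, a replicate block, GC and length offsets, the libraries of a contrast alone, all LSD1 shRNA libraries as 1 group, and each library left out in turn.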

Additional observations from a re-analysis of the deposited data

Results flagged for a closer look

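A difference of at least 1 on the log2 scale between the 2 LSD1 shRNAs, called by edgeR's quasi-likelihood test after adjustment over all genes, was found for 27 named genes among those that met the rule. The values in parentheses are sh72 minus sh68.

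Of genes lower than the control, those lower with sh68 were IFI44L (4.69), IFIT1 (3.22), IFI44 (2.87), DDX60 (2.68), RSAD2 (2.29), USP18 (2.21), XAF1 (2.15), MX1 (1.90), ISG15 (1.75), IRF7 (1.34) and DHX58 (1.34), all of them interferon genes or regulators of that pathway. Those lower with sh72 were MPEG1 (-2.16), TLR7 (-1.77) and RAB30 (-1.44), a phagocyte pore protein, an RNA sensor and a RAB GTPase.

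Of genes higher than the control, those higher with sh68 were IL7R (-2.60), PRR5L (-2.25), CRB2 (-2.17), ZEB2 (-1.63), CD96 (-1.50), IL6R (-1.49), COL9A2 (-1.43), SLC25A30 (-1.25), PCDH9 (-1.22), MET (-1.10) and DNAJB13 (-1.03). Those higher with sh72 were CNTNAP2 (1.11) and SLC12A8 (1.13). In each of the 27 genes the 3 sh68 libraries did not overlap the 3 sh72 libraries.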

How the results depend on the processing

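Higher members numbered 2199 to 2814 and lower members 1955 to 2763 over the scalings, filters and left-out libraries tried, and the median log2 fold change of the interferon effectors ran from -0.82 to -0.73. Members called for sh72 minus sh68 numbered 2036 to 2597. Calls on the mean changed by more than 1.5 times under 1 alternative: with the 6 LSD1 shRNA libraries as 1 group, whose spread then holds the difference between the shRNAs, 1857 genes were called higher and 1724 lower. Under offsets for GC content and length, sh72 minus sh68 changed sign for MYO1G (0.041), KCNH2 (0.27), H2AFY (0.0075) and IFNAR1 (0.11); the cause was not tested. Replicate numbers did not pair the libraries, since the residual correlation (Pearson r) of same-numbered libraries ran from -0.036 to 0.072, and with the replicate block 4091 genes were called higher and 4540 lower. Shares on chromosome 11 and in ZNF genes were recomputed after seeing the data; lower members on chromosome 11 ran from 22.8% to 29.9%. At this depth a control level under 1 CPM rests on few reads, which limits the precision of folds there.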

Other observations

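Heat shock and DNAJ chaperone genes were above all controls in 17 of 68 cases (25%, against 14.6% of all genes) and below in 11 (16.2%, against 15.3%). DNAJC12 was at 4.95, 5.05 and 3.86 CPM in the shSCR libraries, 8.22, 8.34 and 9.39 with sh68 and 12.5, 12.5 and 10.7 with sh72. Of 230 solute carriers 37 were higher and 28 lower, near the shares of all genes, and SLC12A8 was at 1.42, 1.14 and 0.956 CPM in the shSCR libraries, 1.69, 1.62 and 1.76 with sh68 and 3.67, 3.54 and 3.90 with sh72. Kinesins had 9 of 35 genes lower (25.7%, against 15.3% of all genes) and 1 higher (2.86%, against 14.6%), that one being KIF5C (0.53 ± 0.057).

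Dual specificity phosphatases, which act on MAP kinases, were lower in 6 of 16 cases (37.5%, against 15.3% of all genes) and higher in 3 (18.8%, against 14.6%). DUSP5 was at 6.61, 6.68 and 7.04 CPM in the shSCR libraries, 3.28, 2.76 and 2.497 with sh68 and 4.90, 3.60 and 3.64 with sh72. The RAB GTPase RAB30 was at 198, 207 and 203 CPM in the shSCR libraries, 169, 181 and 174 with sh68 and 59.6, 65.6 and 67.99 with sh72, with most of its difference under sh72. RGS8, a regulator of G-protein signalling, was at 30.3, 34.95 and 31.3 CPM in the shSCR libraries, 11.8, 14.6 and 14.1 with sh68 and 13.6, 15.9 and 16.2 with sh72, and CD80, a costimulatory ligand whose exons overlap TIMMDC1, at 2.10, 2.49 and 2.33 CPM in the shSCR libraries, 6.01, 5.44 and 6.16 with sh68 and 6.18, 5.56 and 6.92 with sh72. The sh68 and sh72 libraries of CD80 overlapped, and their difference was 0.082 ± 0.11.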
